A study of Mus musculus with 24 samples.

Results

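The genes described here are 8 members of 2 linked cytokine systems of macrophages. They are the IL-6 family cytokines Il6, Lif and Osm with the receptor chains Il6ra and Il6st, and the cytokine Il10 with its receptor chains Il10ra and Il10rb. They were chosen by name, as the rows of the count files whose Ensembl identifiers carry these symbols in GENCODE M21, and they are 8 of 43629 identifiers in the files. Messenger RNA was sequenced from bone marrow-derived macrophages (BMMs) of wild-type C57BL/6 mice. Marrow cells had been cultured for 7 days with CSF-1 at 20 ng/mL, which drives marrow precursors to become macrophages, and CSF-1 stayed in the medium of every group. The stimuli were lipopolysaccharide (LPS, a bacterial cell wall component sensed through TLR4), LPS together with interferon gamma (IFNg, 50 ng/mL) and interleukin 4 (IL-4, 20 ng/mL), and control cells were left unstimulated. Each of these 4 conditions was sampled at 1 h and at 18 h with 3 libraries each, which makes 8 groups and 24 libraries. LPS was used at either 20 or 100 ng/mL, and the labels do not assign these doses to groups. Nor do the labels say if the 3 libraries of a group stem from different mice or dishes, so every p-value here rests on the spread between libraries, which may be technical.

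IL-6, leukaemia inhibitory factor (Lif) and oncostatin M (Osm) are secreted by activated macrophages and signal through receptor complexes that share the chain gp130, encoded by Il6st. Il6ra encodes the IL-6 binding chain, which together with gp130 forms the IL-6 receptor. IL-10 is the main cytokine by which macrophages restrain their own inflammatory output. Its receptor pairs the ligand binding chain Il10ra, found mostly on blood cells, with Il10rb, a chain that is widely expressed and shared with receptors of related cytokines. Both systems pass their signal through JAK kinases to the transcription factor STAT3. SOCS proteins restrain cytokine signals of this kind, and SOCS3 does so by binding gp130.

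Il6 lies on chromosome 5 (GRCm38, 30013114 to 30019981, plus strand), Il6st on chromosome 13 (112464070 to 112510086, plus strand) and Il6ra on chromosome 3 (89864059 to 89913196, minus strand). Osm (4236420 to 4241026) and Lif (4257557 to 4272514) are neighbours on the plus strand of chromosome 11, with 16530 bases between the end of Osm and the start of Lif and 0 genes of the files wholly between them. Il10 lies on chromosome 1 (131019845 to 131024974, plus strand), Il10ra on chromosome 9 (45253837 to 45269149, minus strand) and Il10rb on chromosome 16 (91406164 to 91425834, plus strand). Il10rb shares 569 exonic bases on the same strand with the annotated gene Gm21970, which had 0 reads in the files. How the authors' counting treated reads in such shared bases is not given in the sources used here, so the level of Il10rb is uncertain to that extent.

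RefSeq promoter sequences (GRCm38.p6) were matched for 4 of the 8 genes, Il6, Lif, Il6ra and Il6st, and the 250 bases before the start were searched on both strands for 6 motifs of factors downstream of TLR4, cytokine receptors and IL-4. The Il6 and Lif promoters are shown because these 2 genes were near absent without LPS and had the largest ratios to unstimulated cells. Capitals mark the motif matches.
Il6 promoter, chr5:30012864-30013113, plus strand: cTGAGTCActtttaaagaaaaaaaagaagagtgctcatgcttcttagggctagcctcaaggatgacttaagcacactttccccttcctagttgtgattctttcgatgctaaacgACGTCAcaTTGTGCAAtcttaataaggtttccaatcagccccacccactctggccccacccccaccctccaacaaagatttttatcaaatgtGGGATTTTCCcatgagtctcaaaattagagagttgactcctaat
Lif promoter, chr11:4257318-4257567, plus strand: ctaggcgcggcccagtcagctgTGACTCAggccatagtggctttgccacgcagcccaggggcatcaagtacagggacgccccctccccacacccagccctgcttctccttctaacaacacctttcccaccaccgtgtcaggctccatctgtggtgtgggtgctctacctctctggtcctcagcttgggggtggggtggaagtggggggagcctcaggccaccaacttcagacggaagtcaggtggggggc
In Il6 the matches, from the 5′ end, were an AP-1 motif (TGANTCA) at positions -249 to -243 from the start, a CRE core (TGACGT, here on the minus strand) at -136 to -131, a C/EBP motif (TTGNNCAA) at -128 to -121 and the kappaB consensus at -44 to -35. None of the 4 overlapped another. In Lif only the AP-1 motif was matched, at -228 to -222. The Il6ra and Il6st windows held none of the 6 motifs, which also included the STAT motif TTCNNNGAA and the STAT6 motif, TTC and GAA with 4 bases of any kind between. Over 32851 promoters of the same length, 3.9% held the kappaB consensus, 6.75% AP-1, 5.65% C/EBP, 6.47% the CRE core, 7.02% the STAT motif and 5.85% the STAT6 motif.

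The messages of several of these cytokines are short-lived, and the sequence ATTTA in the 3′ untranslated region (AUUUA in the RNA) is the core of the elements through which proteins such as tristetraprolin shorten the life of cytokine messages. A window of 30 bases is shown for the 4 cytokines, with positions counted from 1 after the stop codon and each ATTTA in capitals.
Il6, 136 to 165: atttttaATTTAttgataATTTAaataagt
Lif, 3080 to 3109: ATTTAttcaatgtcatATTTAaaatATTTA
Osm, 942 to 971: ATTTAtaaggcctATTTAtaatgtatattt
Il10, 116 to 145: ctctctccgaaatATTTAttacctctgata
Il6 held 6 ATTTA in 427 bases, or 14.1 per kb, a density reached by 0.439% of 11165 genes. Il10 held 6 in 706 bases (8.5 per kb, reached by 1.67% of genes) and Osm 6 in 1017 bases (5.9 per kb, reached by 4.68%). The long Lif region held 7 in 3180 bases (2.2 per kb, reached by 31.6%), but 5 of the longer form TATTTAT, a count reached by 0.484% of genes. Of this longer form Il10 held 4 (reached by 1.19%), Osm 3 (3.3%) and Il6 1 (27.6%). Among the receptors, Il10rb held 4 ATTTA in 711 bases (5.63 per kb, reached by 5.23%) and Il6st 9 in 5641 bases (1.6 per kb). Il10ra held 3 in 1693 bases (1.77 per kb, reached by 39.4%) and Il6ra 1 in 1837 bases. Il10ra also held 3 TATTTAT (reached by 3.3%), and the other receptors held 0.

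The libraries held 4181890 to 8122945 counted reads, and 15450 to 19108 genes had at least 1 read. All 8 macrophage markers were detected in every group, with a summed level of 10500 to 25400 CPM, the read count scaled to a common library size. Markers of other cells were low: T and NK cell markers summed to 1.07 to 8.51 CPM and B cell markers to 0.379 to 3.23 CPM. Neutrophil markers summed to 25.2 to 46.4 CPM in LPS with IFNg at 18 h and to 68.9 to 164 CPM in every other group, and dendritic cell markers to 8.52 to 12.3 CPM in LPS with IFNg at 18 h, against 2.04 to 2.98 CPM unstimulated at 18 h. At 1 h the dendritic cell markers summed to 7.41 to 8.01 CPM in LPS, the group with the most Il10, and to 3.77 to 5.37 CPM in LPS with IFNg, against 2.06 to 3.59 CPM unstimulated. The dendritic cell markers did not move together. In LPS with IFNg at 18 h, Xcr1 (mean 8.34, against 0.157 CPM unstimulated) and Zbtb46 (1.31, against 0.419 CPM) were higher. Flt3 (0.241, against 1.09 CPM) and Siglech (0.115, against 0.85 CPM) were lower there. In LPS at 1 h, Xcr1, Zbtb46 and Flt3 were higher than unstimulated and Siglech (1.18, against 1.42 CPM) was lower. Stromal markers summed to 4.09 to 7.19 CPM in LPS at 18 h, mainly from Dcn, against 0.169 to 0.94 CPM unstimulated at 18 h. The part of these cells in the results was not tested. In these bulk libraries, fewer cells of a type and less RNA per cell cannot be told apart. Within groups, LPS 18 h replicate 2 and IL-4 18 h replicate 2 stood apart from the other libraries of their groups, with a chi-square per gene of up to 11.4 and 7.41, where pairs without them had 1.62 to 3.59. Results that rest on them are also given without them where the call or the value changes.

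The values given are CPM with TMM scaling, which sets the bulk of genes to no change, and tests are edgeR quasi-likelihood tests over 12765 genes with Benjamini-Hochberg adjustment. A gene is called at an adjusted p below 0.05, and log2 fold changes are given ± their standard error. All 8 genes passed the filter on low counts, Il6 and Lif because of the LPS groups, so their absence elsewhere is shown by the reads themselves. For the same reason, a call of Il6 or Lif as higher in an LPS group than in unstimulated cells was nearly fixed in advance. The counts and medians over the 8 genes include both. Counts of called genes are read against the percentage of all tested genes that were called in the same comparison.

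At 1 h, LPS against unstimulated cells changed 7 of the 8 genes (22.1% of all tested genes), with 6 higher (10.7%) and 1 lower (11.4%), the percentages being those of all tested genes called in the same way. The median log2 fold change was 2.04 for the 8 genes and -0.002 for all tested genes. Il6 and Lif, which passed the filter through the LPS groups, are among the 6 called higher. LPS with IFNg at 1 h changed 6 (29.3%), with 5 higher (14.7%) and 1 lower (14.6%), and the medians were 1.85 and 0.01. IL-4 at 1 h changed 3 (6.43%), all 3 higher (3.22%) and 0 lower (3.21%). Deviations of same-numbered libraries of IL-4 and unstimulated cells at 1 h were weakly correlated (r = 0.133, 0.231 and 0.164). The labels do not say that the numbers pair libraries. A fit of these 2 groups alone with the replicate number as a block was added after the values were seen. It called 5 of the 8, all higher, adding Il6ra (0.21, adjusted p 0.041) and Il10rb (0.16, adjusted p 0.017), and 1520 genes in all, against 821. Those 2 added calls rest on that unstated pairing.

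At 18 h the background was much larger. LPS changed 6 of the 8 (63%), with 5 higher (31.7%) and 1 lower (31.3%), and LPS with IFNg changed 7 (72%), with 6 higher (36%) and 1 lower (36.1%). The total counts are near the background here, and the calls ran mostly upward, with median log2 fold changes of 0.99 over the 7 genes with enough reads in LPS and 1.51 in LPS with IFNg, against 0.01 and -0.005 for all genes. IL-4 at 18 h changed 4 (39.2%), with 1 higher (19.1%) and 3 lower (20.1%), which is near the background.

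LPS with IFNg against LPS changed 6 at 1 h (11.8%), with 5 higher (6.52%) and 1 lower (5.26%). At 18 h this comparison changed 6 as well (47.3%), with 4 higher (23.9%) and 2 lower (23.4%). Between times, unstimulated cells at 18 h against 1 h differed in 3 genes (11.9%), with 1 higher (3.97%) and 2 lower (7.93%). LPS at 18 h against LPS at 1 h differed in 7 (64.5%), with 2 higher (32.2%) and 5 lower (32.4%). LPS with IFNg differed between the times in 7 (72.7%), with 2 higher (35.7%) and 5 lower (37%), and IL-4 in 5 (40.8%), with 0 higher (19.2%) and 5 lower (21.6%). In these last 3 comparisons the calls ran mostly downward. Median log2 fold changes were -0.66 in LPS, -0.58 in LPS with IFNg and -0.77 over the 6 genes with enough reads in IL-4. The medians of all genes were 3e-05, -0.02 and -0.02. A test of the response at 18 h minus that at 1 h passed for 6 genes in LPS (54.2% of all genes), 4 in LPS with IFNg (63.9%), 3 in IL-4 (21.3%) and 3 for the effect of added IFNg (34.9%). At least 1 of these 4 tests passed for 6 of the 8 genes and for 77.2% of all genes, so this count is near the background. Comparisons of a time share that time's unstimulated libraries, and the fold changes of the 8 genes stand side by side in the grid of log2 fold changes.

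**Figure D1:**
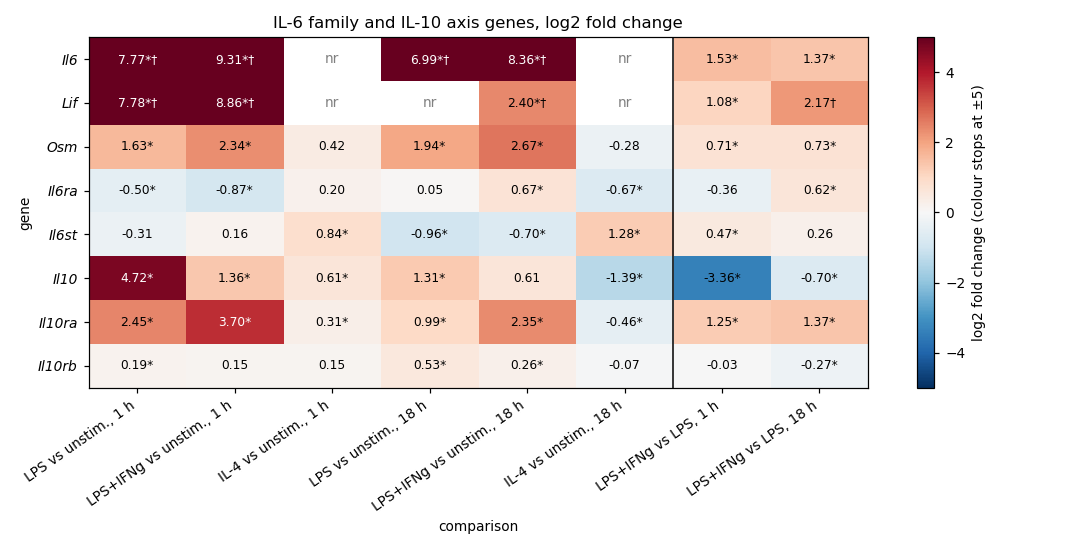
Fitted log2 fold changes of the 8 genes (rows) in 8 comparisons of groups (columns), the first named group over the second, with colour stopping at 5 in either direction. An asterisk marks an adjusted p below 0.05 (edgeR quasi-likelihood test), a dagger a fitted value where a group had 3 reads or fewer, and nr a pair with 3 reads or fewer in both groups. Il10 is 4.72 in LPS at 1 h and -3.36 in LPS with IFNg against LPS at 1 h, while Il10ra is positive in both.

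Il6 was all but absent without LPS and was highest when IFNg was added. Il6 at 1 h had 3.66, 6.06 and 4.00 CPM in LPS, 12.8, 13.5 and 13.5 CPM in LPS with IFNg, and 0 reads in all 3 unstimulated libraries. Its 18 h levels were 8.53, 12.1 and 7.56 CPM in LPS, 25.5, 27.5 and 19.3 CPM in LPS with IFNg, and 0, 0 and 0.157 CPM unstimulated. All 12 libraries with LPS thus lay above all 12 without it, and the 4 LPS groups did not overlap one another. With 61 reads in LPS and 0 in unstimulated cells, Il6 at 1 h was at least 29.5-fold higher in LPS, counting 3 reads over the group as the limit that 0 reads allows. LPS with IFNg at 1 h was at least 85.6-fold higher (212 against 0 reads). At 18 h the ratio was 177 in LPS (95% counting interval 31.2 to 7020, 146 against 1 read) and 460 in LPS with IFNg (82.0 to 18200, 411 against 1 read), intervals that cover counting error only.

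Added IFNg raised Il6 by a similar factor at both times. LPS with IFNg over LPS gave a log2 fold change of 1.53 ± 0.24 at 1 h (adjusted p 9e-06) and 1.37 ± 0.18 at 18 h (adjusted p 1.7e-07), and the difference between the 2 times was -0.16 ± 0.31 (adjusted p 0.73). Whether the 2 groups had the same LPS dose is not given, so the effect of IFNg and of a difference in dose cannot be told apart in any comparison of LPS with IFNg against LPS. Il6 was also higher at 18 h than at 1 h in LPS, by 1.03 ± 0.25 (adjusted p 0.00073), and in LPS with IFNg, by 0.86 ± 0.17 (adjusted p 4.3e-05). IL-4 gave 1 read in all at 1 h and 3 reads at 18 h, so no change from unstimulated cells, with 0 reads at 1 h and 1 read at 18 h, can be seen at this depth.

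Lif was an early message that had nearly gone by 18 h. Lif at 1 h had 24.4, 26.0 and 32.0 CPM in LPS, 48.5, 54.2 and 70.2 CPM in LPS with IFNg, and 0.276, 0 and 0 CPM unstimulated. Its levels at 18 h were 0.178, 0 and 0.189 CPM in LPS and 0.776, 0.948 and 0.189 CPM in LPS with IFNg, against 0, 0 and 0.313 CPM unstimulated. The 1 h LPS libraries lay far above every library of 18 h, and at 18 h the LPS and unstimulated libraries overlapped. The ratio to unstimulated cells at 1 h was 264 in LPS (95% counting interval 72.5 to 2190, 364 against 2 reads) and 560 in LPS with IFNg (155 to 4630, 925 against 2 reads). Adding IFNg to LPS raised Lif at 1 h by 1.08 ± 0.15 on the log2 scale (adjusted p 2.2e-06).

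By 18 h, Lif in LPS was lower than in LPS at 1 h by a ratio of 214 (58.8 to 1770, 2 against 364 reads). In LPS with IFNg it was 86.4-fold lower at 18 h than at 1 h, with a log2 fold change of -6.43 ± 0.28 (adjusted p 3.7e-19). What remained in LPS with IFNg at 18 h was 11 reads against 2 unstimulated, a ratio of 6.15 (1.34 to 57.1, adjusted p 0.032), a call that held in 9 of 14 settings with adjusted p from 0.0076 to 0.11, and that was lost without unstimulated replicate 1 or 2 or LPS with IFNg replicate 1 or 2 (adjusted p 0.092 to 0.11). Against the 2 reads in LPS at 18 h the ratio was 5.08 (1.11 to 47.2, adjusted p 0.081), which passed the test in 2 of 14 settings (0.04 to 0.22). Over the same interval its neighbour Osm had log2 fold changes of -0.40 ± 0.14 in LPS (adjusted p 0.011) and -0.38 ± 0.12 in LPS with IFNg (adjusted p 0.0048). The call in LPS held in 13 of 15 settings and was lost without replicate 3 of 1 h or of 18 h (adjusted p 0.082 and 0.073). In LPS with IFNg it held in 14 of 15 and was lost without 1 h replicate 3 (adjusted p 0.076).

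Osm was present in every library, rose with LPS at both times and rose further with IFNg. Osm at 1 h had 27.1, 24.9 and 31.8 CPM in LPS, 41.3, 42.0 and 52.6 CPM in LPS with IFNg, 13.4, 11 and 11.3 CPM in IL-4, and 9.40, 7.05 and 10.7 CPM unstimulated. The 18 h levels were 21, 24 and 18.3 CPM in LPS, 34.9, 34.9 and 34.8 CPM in LPS with IFNg, 4.86, 3.57 and 5.34 CPM in IL-4, and 4.91, 5.82 and 5.64 CPM unstimulated. No LPS library overlapped an unstimulated or IL-4 library of either time. The log2 fold change over unstimulated cells was 1.63 ± 0.15 in LPS (adjusted p 1.3e-10) and 2.34 ± 0.14 in LPS with IFNg (9.1e-16) at 1 h. The values at 18 h were 1.94 ± 0.17 in LPS (7.2e-12) and 2.67 ± 0.16 in LPS with IFNg (1.5e-16).

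The IFNg increment of Osm was 0.71 ± 0.13 at 1 h (adjusted p 6.3e-05) and 0.73 ± 0.13 at 18 h (1.9e-05), smaller than those of Il6 in value, though the genes were not tested against each other. In unstimulated cells Osm was lower at 18 h than at 1 h by -0.71 ± 0.19 (adjusted p 0.012), a call that held in 12 of 15 settings and was lost without 1 h replicate 1 or 3 or 18 h replicate 1 (adjusted p 0.057 to 0.089). IL-4 against unstimulated cells did not pass the test at 1 h (0.42, adjusted p 0.16) or at 18 h (-0.28, adjusted p 0.32).

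Il10 was highest with LPS alone at 1 h, and far lower at that time when IFNg was present. Levels between 1 h and 18 h were not sampled. Il10 at 1 h had 225, 186 and 244 CPM in LPS, 20.4, 16.7 and 26.4 CPM in LPS with IFNg, 14.1, 10.5 and 12.9 CPM in IL-4, and 9.26, 6.47 and 9.20 CPM unstimulated. Il10 at 18 h had 6.04, 10.0 and 7.75 CPM in LPS, 3.88, 5.31 and 5.49 CPM in LPS with IFNg, 0.973, 1.00 and 1.68 CPM in IL-4, and 3.05, 2.98 and 3.45 CPM unstimulated. The 3 LPS libraries of 1 h stood far above the other 21, and the 4 groups of 1 h did not overlap.

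Il10 in LPS at 1 h was 26.3-fold higher than unstimulated, a log2 fold change of 4.72 ± 0.15 (adjusted p 2.9e-23), against 2.57-fold, or 1.36 ± 0.18 (adjusted p 1.8e-07), in LPS with IFNg. LPS with IFNg was 10.3-fold lower than LPS at 1 h (-3.36 ± 0.13, adjusted p 6.3e-20), and 6 of the 12765 tested genes had a lower log2 fold change in that comparison. By 18 h, Il10 in LPS was 27.7-fold lower than in LPS at 1 h (-4.79 ± 0.15, adjusted p 2.6e-23), and in LPS with IFNg the log2 fold change was -2.13 ± 0.20 (adjusted p 4.7e-11). It was then still above unstimulated cells in LPS by 1.31 ± 0.26 (adjusted p 6.3e-05; 1.12 without LPS 18 h replicate 2), while LPS with IFNg missed the threshold (0.61 ± 0.29, adjusted p 0.057) and passed it in 5 of 15 settings, with adjusted p from 0.03 to 0.8. The difference between LPS with IFNg and LPS at 18 h was -0.70 ± 0.25 (adjusted p 0.02), was called in 11 of 15 settings (0.0044 to 0.15), and was -0.51 without LPS 18 h replicate 2 (adjusted p 0.14) and -0.54 without LPS with IFNg 18 h replicate 1 (adjusted p 0.12). The change of the IFNg effect between the times was 2.66 ± 0.30 (adjusted p 9.5e-09).

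IL-4 moved Il10 in opposite directions at the 2 times. At 1 h it was higher than unstimulated by 0.61 ± 0.19 (adjusted p 0.046), a call that held in 10 of 16 settings with adjusted p from 0.0025, in the blocked fit of both groups alone, to 0.28, and that was lost without unstimulated replicate 1, 2 or 3 or IL-4 replicate 1 or 3 (adjusted p 0.056 to 0.28). At 18 h it was lower by -1.39 ± 0.37 (adjusted p 0.0028; -1.26 and 0.021 without the 2 libraries that stood apart), and the difference between the times was -2.00 ± 0.41 (adjusted p 0.00046). Unstimulated cells also had less Il10 at 18 h than at 1 h, by -1.38 ± 0.25 (adjusted p 0.00023).

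**Figure D2:**
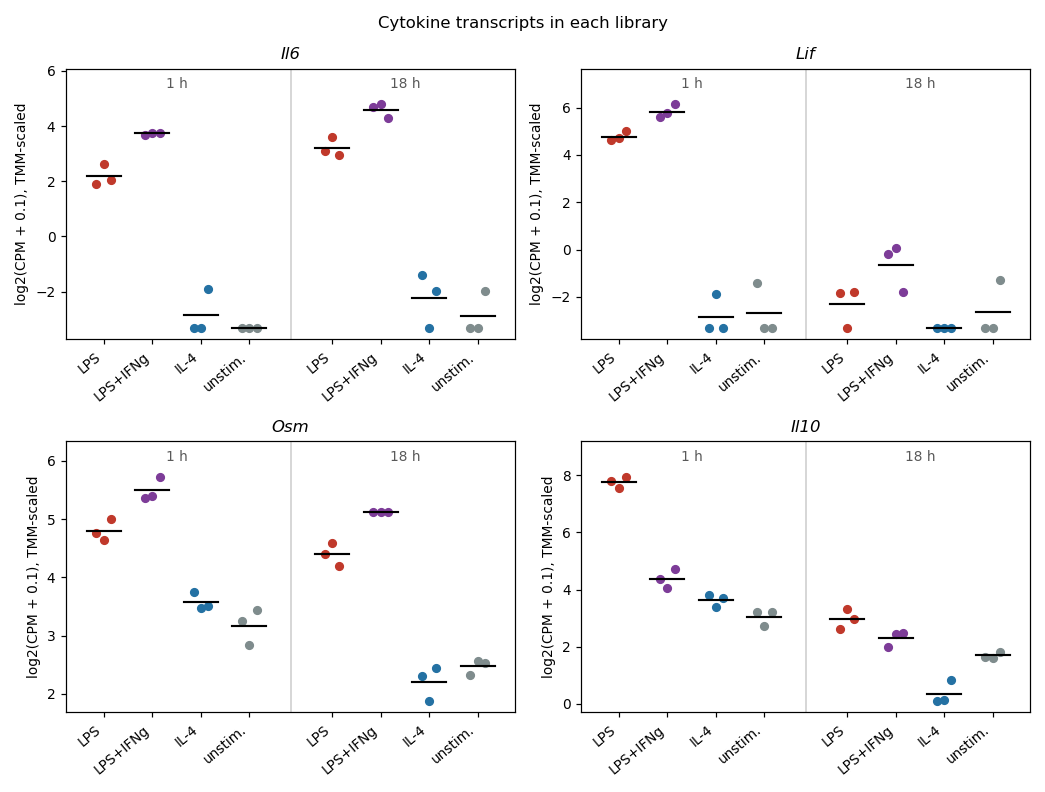
Levels of Il6, Lif, Osm and Il10 in each of the 24 libraries as log2(CPM + 0.1), with TMM-scaled CPM, by group (LPS, LPS with IFNg, IL-4 and unstimulated, at 1 h and 18 h); points are libraries and bars the mean of the 3 plotted values. Lif is high only in the LPS groups of 1 h, Il10 is highest in LPS at 1 h, and Osm is measurable in every library.

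Set against each other within a library and per kb of exon length, which cancels the library's scaling, the cytokines of the LPS groups differed by IFNg. The ratio of Il6 to Il10 at 1 h was 0.338, 0.437 and 0.275 in LPS with IFNg, against 0.00879, 0.0176 and 0.00884 in LPS. The ratios at 18 h were 3.54, 2.79 and 1.90 in LPS with IFNg, against 0.762, 0.652 and 0.526 in LPS. The libraries with IFNg lay above those without it at each time. With exon lengths of 2428 bases for Il6 and 1310 for Il10, Il6 exceeded Il10 per kb in no library of LPS alone. It did so in all 3 libraries of LPS with IFNg at 18 h. In LPS at 18 h the reads themselves were 48, 58 and 40 for Il6 and 34, 48 and 41 for Il10. Which of the 2 was higher in that group thus depends on the lengths used. These ratios were chosen after the values were seen and carry no test. Exon lengths here are the union over annotated isoforms, so levels per kb understate genes with long unused exons.

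Among the receptors, Il10ra had the largest response, in the direction opposite to Il10 when IFNg was added. Il10ra at 1 h had 300.0, 294 and 321 CPM in LPS, 713, 707 and 756 CPM in LPS with IFNg, 71.8, 61.6 and 74.2 CPM in IL-4, and 54.6, 57.0 and 55.6 CPM unstimulated. Il10ra at 18 h had 155, 168 and 166 CPM in LPS, 434, 434 and 389 CPM in LPS with IFNg, 65.5, 58.6 and 54.4 CPM in IL-4, and 77.6, 76.8 and 91.7 CPM unstimulated. The 4 LPS groups lay above all other libraries and did not overlap one another.

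The rise of Il10ra over unstimulated cells at 1 h was 5.47-fold in LPS (log2 fold change 2.45 ± 0.08, adjusted p 1.5e-22) and 13.0-fold in LPS with IFNg (3.70 ± 0.09, adjusted p 1.1e-27). The 18 h values were 0.99 ± 0.08 on the log2 scale in LPS (adjusted p 1.2e-12) and 5.11-fold in LPS with IFNg (2.35 ± 0.08, adjusted p 3.7e-23). The IFNg increment was 1.25 ± 0.08 at 1 h (adjusted p 2.6e-15) and 1.37 ± 0.08 at 18 h (adjusted p 2e-16), and the difference between these was 0.12 ± 0.11 (adjusted p 0.44). IL-4 gave a log2 fold change of 0.31 ± 0.09 at 1 h (adjusted p 0.018; called in 12 of 16 settings, and 0.056 to 0.13 without unstimulated replicate 1 or 3 or IL-4 replicate 1 or 3) and -0.46 ± 0.08 at 18 h (adjusted p 4e-05). Unstimulated cells had more Il10ra at 18 h than at 1 h, by 0.56 ± 0.09 (adjusted p 1.9e-05).

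Il10rb, the partner chain, varied little. Its group means ran from 162 ± 6.66 CPM in IL-4 at 18 h to 244 ± 9.33 CPM in LPS at 18 h (SD, n = 3 each), with 250.0, 249 and 234 CPM in LPS, 214, 189 and 204 CPM in LPS with IFNg, 169, 162 and 155 CPM in IL-4, and 165, 170.0 and 174 CPM unstimulated at 18 h. The 3 libraries of LPS at 18 h were above all others, and LPS with IFNg at 18 h was above unstimulated without overlap. The log2 fold change at 18 h was 0.53 ± 0.06 in LPS (adjusted p 1.1e-08) and 0.26 ± 0.06 in LPS with IFNg (adjusted p 0.0007), but with scaling by library size alone these were 0.10 (adjusted p 0.13) and -0.28 (adjusted p 0.00012). LPS with IFNg against LPS was -0.27 ± 0.06 at 18 h (adjusted p 0.00068) and -0.03 at 1 h (adjusted p 0.9). The call in LPS at 1 h (0.19 ± 0.07, adjusted p 0.035) held in 7 of 15 settings, with adjusted p from 0.009 to 0.99. It was lost without LPS replicate 1, 2 or 3 or unstimulated replicate 1 or 2 (0.063 to 0.2), and it was -0.002 with scaling by library size alone.

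The ratio of Il10ra to Il10rb per kb within libraries at 1 h was 3.94, 4.09 and 4.35 in LPS with IFNg and 1.64, 1.65 and 1.80 in LPS, against 0.346, 0.38 and 0.334 unstimulated. The 18 h ratios were 2.21, 2.50 and 2.07 in LPS with IFNg and 0.672, 0.733 and 0.774 in LPS, against 0.512, 0.493 and 0.573 unstimulated. With these exon lengths, the ligand binding chain was the lower per kb in all 12 libraries without LPS. It was the higher in the LPS libraries of 1 h and in LPS with IFNg at 18 h. The lengths, 3498 bases for Il10ra and 3808 for Il10rb, are unions over isoforms, and the bases shared with Gm21970 add uncertainty. Which chain was the more abundant message was therefore not settled, while the differences between groups do not depend on the lengths.

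The signalling chain Il6st was highest with IL-4 and lowest with LPS at 18 h. Il6st at 1 h had 127, 131 and 150.0 CPM in LPS, 178, 199 and 186 CPM in LPS with IFNg, 300.0, 264 and 335 CPM in IL-4, and 169, 156 and 179 CPM unstimulated. Il6st at 18 h had 71.1, 49.8 and 88.7 CPM in LPS, 83.7, 73.8 and 94.9 CPM in LPS with IFNg, 380.0, 277 and 335 CPM in IL-4, and 126, 138 and 145 CPM unstimulated. The IL-4 libraries lay above all others at both times, and the LPS libraries of 18 h lay below all others, with or without IFNg.

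IL-4 raised Il6st 1.79-fold at 1 h (log2 fold change 0.84 ± 0.14, adjusted p 0.0002) and 2.42-fold at 18 h (1.28 ± 0.14, adjusted p 1.9e-07). It fell at 18 h in LPS (-0.96 ± 0.15, adjusted p 9.8e-06; -0.77 without LPS 18 h replicate 2 and IL-4 18 h replicate 2) and in LPS with IFNg (-0.70 ± 0.15, adjusted p 0.00025). At 1 h the value in LPS was -0.31 and missed the threshold (adjusted p 0.15), but it passed in 5 of 15 settings (adjusted p 0.006 to 0.33 over all 15). It passed with the compared groups alone, with a replicate block, with no filter, with library-size scaling and without the 2 libraries that stood apart. LPS with IFNg at 1 h gave 0.16 (adjusted p 0.45), and LPS with IFNg against LPS was 0.47 ± 0.14 (adjusted p 0.037), a call that held in 9 of 15 settings and was lost without LPS replicate 1 or 2 or LPS with IFNg replicate 1, 2 or 3 (adjusted p 0.057 to 0.14).

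Il6ra did not follow Il6st. Il6ra at 1 h had 38.7, 34.4 and 48.8 CPM in LPS, 29.3, 26.9 and 37.7 CPM in LPS with IFNg, 70.6, 55.3 and 71.2 CPM in IL-4, and 57.6, 54.8 and 59.7 CPM unstimulated. Il6ra at 18 h had 46.2, 30.2 and 55.2 CPM in LPS, 65.7, 72.1 and 65.3 CPM in LPS with IFNg, 27.2, 24.6 and 28.9 CPM in IL-4, and 41.0, 41.8 and 44.8 CPM unstimulated. The LPS libraries lay below the unstimulated ones at 1 h, with and without IFNg. At 18 h LPS with IFNg lay above, IL-4 below, and LPS spread across the unstimulated values, with replicate 2 the lowest.

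In numbers, Il6ra fell at 1 h by 0.50 on the log2 scale in LPS (SE 0.15, adjusted p 0.017; called in 13 of 15 settings, and 0.067 and 0.11 without LPS 1 h replicate 1 or 2) and by 0.87 in LPS with IFNg (SE 0.15, adjusted p 6.1e-05). Il6ra at 18 h was higher in LPS with IFNg by 0.67 ± 0.14 (adjusted p 0.0002), where library-size scaling gave 0.13, lower in IL-4 by -0.67 ± 0.15 (adjusted p 0.0012), and 0.05 in LPS (adjusted p 0.78), which library-size scaling turned to -0.36. The LPS with IFNg response differed between the times by 1.54 ± 0.21 (adjusted p 5.6e-07), and the IL-4 response by -0.87 ± 0.21 (adjusted p 0.0032). LPS with IFNg against LPS was 0.62 ± 0.15 at 18 h (adjusted p 0.0011; 0.42 and 0.0045 without the 2 libraries that stood apart) and -0.36 at 1 h (adjusted p 0.21).

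**Figure D3:**
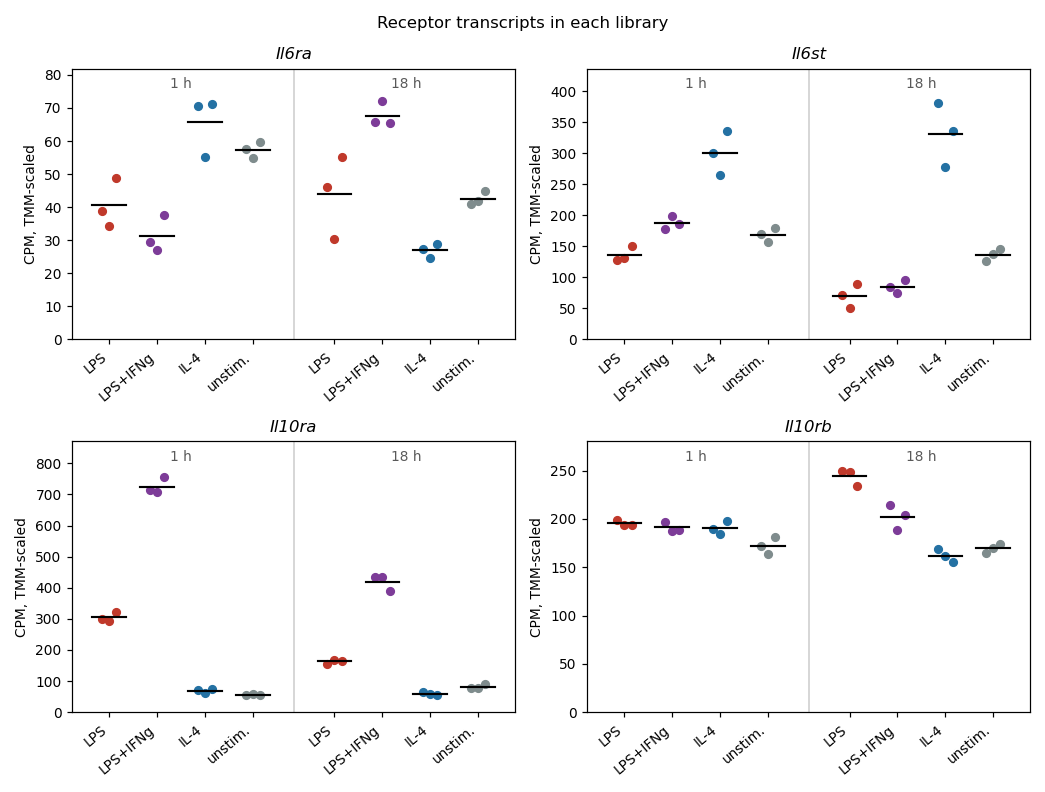
Levels of Il6ra, Il6st, Il10ra and Il10rb in each of the 24 libraries as TMM-scaled CPM on a linear axis from 0, by group (LPS, LPS with IFNg, IL-4 and unstimulated, at 1 h and 18 h); points are libraries and bars are means of 3. Il6st is highest in IL-4, Il10ra in LPS with IFNg, and Il10rb stays between 155 and 250.0 CPM throughout.

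IL-4 at 18 h thus moved the 2 IL-6 receptor chains apart. The ratio of Il6st to Il6ra per kb within libraries at 18 h was 10.9, 8.77 and 9.05 in IL-4, 0.992, 0.797 and 1.13 in LPS with IFNg and 1.20, 1.28 and 1.25 in LPS, against 2.40, 2.57 and 2.52 unstimulated. At 18 h the libraries of IL-4 lay above, and those of the LPS groups below, all unstimulated ones. At 1 h the ratio was 4.74, 5.76 and 3.84 in LPS with IFNg, 2.56, 2.97 and 2.39 in LPS and 3.31, 3.72 and 3.66 in IL-4, against 2.28, 2.21 and 2.34 unstimulated. At that time all 3 stimuli lay above the unstimulated libraries, and LPS with IFNg lay above IL-4. This ratio too was chosen after the values were seen and has no test.

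**Figure D4:**
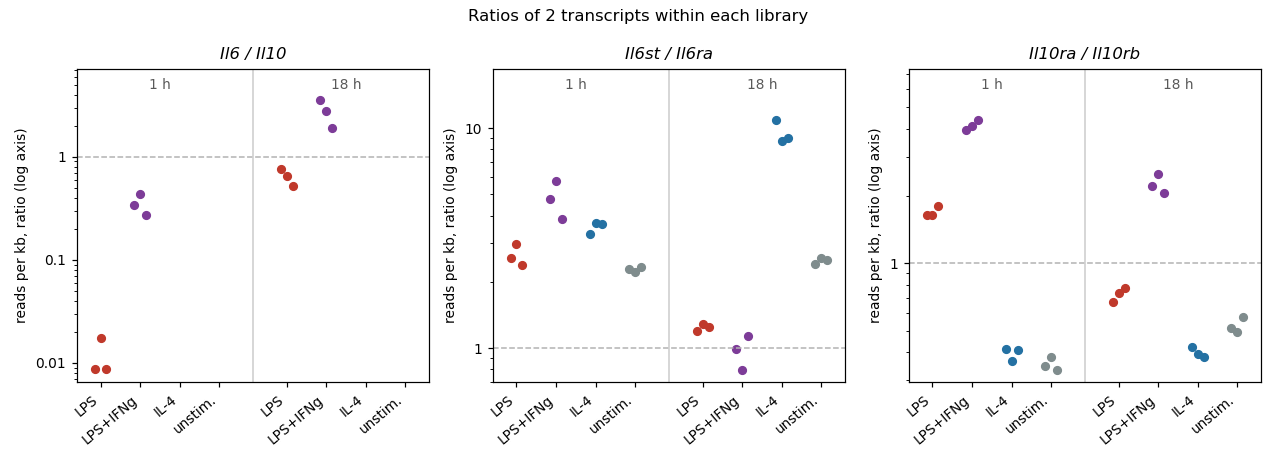
Ratios of CPM per kb of exon within each library, on a logarithmic axis, for Il6 over Il10 (LPS groups only), Il6st over Il6ra and Il10ra over Il10rb, by group; points are libraries. Il6 over Il10 is higher in LPS with IFNg than in LPS at each time, Il6st over Il6ra is highest in IL-4 at 18 h at 8.77 to 10.9, and Il10ra over Il10rb is highest in LPS with IFNg at 1 h.

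Other ligands of the gp130 family were mostly absent. Of 8, 5 were too low to test, with 2 to 7 reads over all 24 libraries, and the remaining 3 were Clcf1, a ligand of the ciliary neurotrophic factor receptor, and Il27 and Ebi3, which encode the subunits of IL-27. All 3 rose in LPS (10.7% of all tested genes at 1 h and 31.7% at 18 h) and in LPS with IFNg (14.7% and 36%). Clcf1 resembled Il10 at 1 h in the LPS groups only. It had 60.7 ± 5.55 CPM in LPS and 17.7 ± 1.97 CPM in LPS with IFNg, against 2.73 ± 0.777 CPM unstimulated (SD, n = 3 each). LPS with IFNg was lower than LPS by -1.77 ± 0.12 on the log2 scale (adjusted p 5.9e-14). In IL-4 at 1 h Clcf1 had 0.694 ± 0.328 CPM, below unstimulated, where Il10 was above it. Il27 instead was highest in LPS with IFNg at 18 h, at 52.7 ± 4.59 CPM, with 8.38 ± 0.774 CPM in LPS and 1.04 ± 0.868 CPM unstimulated. Ebi3 was highest in LPS at 18 h at 129 ± 4.09 CPM, where LPS with IFNg had 76.1 ± 5.23 CPM (-0.76 ± 0.08, adjusted p 5.3e-10).

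Of 6 other receptors of the family, Osmr, the oncostatin M receptor chain, had 7 reads over all 24 libraries and Cntfr had 2, too few to test. None of the 4 tested receptors was called at 1 h in LPS (22.1% of all tested genes), LPS with IFNg (29.3%) or IL-4 (6.43%). At 18 h Lifr, the LIF receptor chain, was at 0.463 ± 0.336 CPM in LPS and 1.15 ± 0.398 CPM in LPS with IFNg, against 5.70 ± 1.35 CPM unstimulated, with log2 fold changes of -3.62 ± 0.43 (adjusted p 4.9e-09) and -2.27 ± 0.34 (adjusted p 3.3e-07). Il27ra, the IL-27 receptor chain, also fell in both LPS groups at 18 h. IL-4 at 18 h raised 3 of the 4 (19.1% of all tested genes). Il11ra1 rose to 152 ± 12.6 CPM, against 56.9 ± 3.63 CPM unstimulated, and Il27ra to 27.3 ± 1.10 CPM, against 8.97 ± 1.02 CPM. Il31ra rose to 13.5 ± 3.57 CPM, a ratio of 248 (44.2 to 9840, 297 reads against 1 unstimulated). Il31ra had 297 of its 307 reads in this group and passed the filter on low counts through it. Among 9 other IL-10 family genes, 1 could be tested, the receptor chain Il20rb, which IL-4 at 18 h raised by 2.68 ± 0.31 (adjusted p 1.5e-08).

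The relay behind these receptors was read from 10 genes for kinases, STATs, adaptors and the proteases Adam10 and Adam17, which shed receptors such as the IL-6 receptor. LPS raised 2 at 1 h (10.7% of all tested genes), Jak2 (1.89 ± 0.14, adjusted p 3.1e-11) and Adam17 (0.75 ± 0.07, adjusted p 1e-10), and 8 at 18 h (31.7%) with 1 lower (31.3%). LPS with IFNg raised 6 at 1 h (14.7%), and 9 at 18 h (36%) with 1 lower (36.1%). IL-4 raised 1 at 1 h, Jak2 (3.22%), and 3 at 18 h (19.1%) with 3 lower (20.1%). Stat3 separated the 2 LPS stimuli: at 1 h it had 366 ± 31.7 CPM in LPS with IFNg and 117 ± 11.4 CPM in LPS, against 132 ± 21.6 CPM unstimulated, and at 18 h 551 ± 4.74 CPM in LPS with IFNg and 205 ± 11.7 CPM in LPS, against 74.7 ± 4.31 CPM unstimulated. LPS with IFNg over LPS was 1.65 ± 0.10 at 1 h (adjusted p 2.1e-15) and 1.43 ± 0.09 at 18 h (adjusted p 1.1e-14). Gab1, an adaptor, was instead higher in LPS at 18 h, with 12.0 ± 1.60 CPM in LPS with IFNg, against 49.4 ± 5.60 CPM in LPS.

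Of 8 brakes on the relay, LPS at 1 h raised 4 (10.7% of all tested genes) and lowered 1 (11.4%), LPS with IFNg raised 5 (14.7%) and lowered 1 (14.6%), and IL-4 raised 5 (3.22%) and lowered 0 (3.21%). At 18 h LPS raised 6 (31.7%) and lowered 0 (31.3%), LPS with IFNg raised 5 (36%) and lowered 1 (36.1%), and IL-4 raised 4 (19.1%) and lowered 3 (20.1%). Socs3, the inhibitor that binds gp130, had 1340 ± 130 CPM in LPS and 2960 ± 122 CPM in LPS with IFNg at 1 h, against 6.03 ± 3.38 CPM unstimulated. Its levels by 18 h were 500.0 ± 11.7 CPM in LPS and 531 ± 7.27 CPM in LPS with IFNg, against 1.24 ± 0.729 CPM unstimulated. IL-4 raised Socs3 3.63-fold at 1 h, to 21.9 ± 3.03 CPM (1.86 ± 0.22, adjusted p 1.2e-06), and at 18 h IL-4 had 1.46 ± 0.181 CPM (0.26 ± 0.53, adjusted p 0.74). Socs1, which inhibits JAK kinases, was high where IFNg or IL-4 was present at 1 h, with 256 ± 29.3 CPM in LPS with IFNg and 158 ± 6.12 CPM in IL-4, and at 9.79 ± 1.10 CPM in LPS, against 3.63 ± 1.17 CPM unstimulated. Socs2 was highest in IL-4, with 15.4 ± 3.37 CPM at 1 h and 31.5 ± 2.05 CPM at 18 h, against 1.07 ± 0.374 and 0.686 ± 0.0939 CPM unstimulated at those times.

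**Figure D5:**
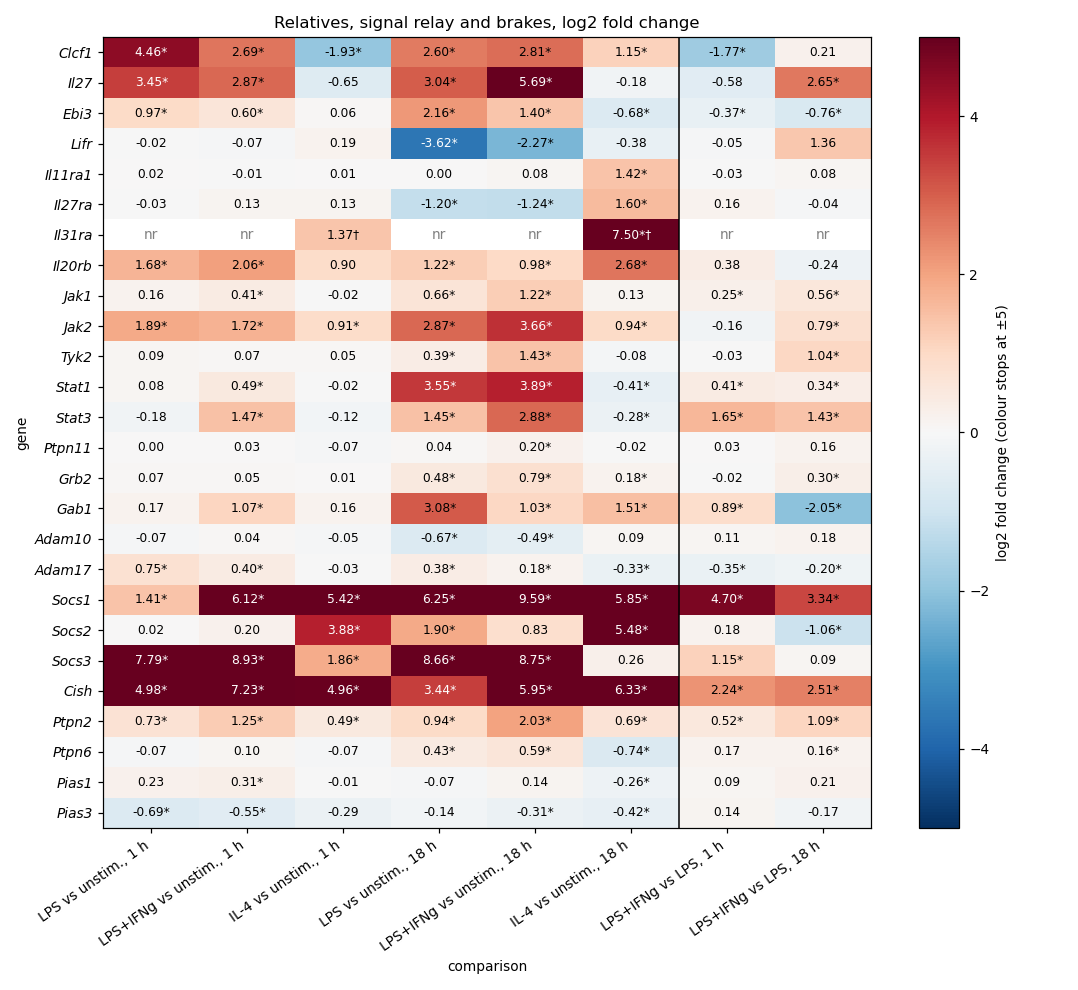
Fitted log2 fold changes of 26 genes around the IL-6 and IL-10 receptors (rows: ligands, receptors, relay and brakes) in 8 comparisons of groups (columns), the first named group over the second, with colour stopping at 5. An asterisk marks an adjusted p below 0.05, a dagger a fitted value where a group had 3 reads or fewer, and nr a pair with 3 reads or fewer in both groups. Socs3 exceeds 7 in both LPS groups at both times, and Stat3 is positive in LPS with IFNg against LPS at 1 h and 18 h.

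Of 16 genes known as targets of IL-10 or STAT3 signalling, 15 were tested. LPS raised 12 at 1 h (10.7% of all tested genes) and 13 at 18 h (31.7%) and lowered 0 at both times (11.4% and 31.3%). LPS with IFNg raised 15 at 1 h (14.7%), and 14 at 18 h (36%) with 1 lower (36.1%). In LPS with IFNg against LPS at 1 h, where Il10 was lower, 8 of these genes were higher (6.52%) and 2 lower (5.26%). Among them, Nfil3 had 131 ± 7.07 CPM in LPS with IFNg, against 14.9 ± 2.12 CPM in LPS (3.15 ± 0.13, adjusted p 1.7e-19). Il1rn, the IL-1 receptor antagonist, had 1630 ± 124 CPM in LPS with IFNg, against 260.0 ± 32.6 CPM in LPS (2.65 ± 0.11, adjusted p 9.9e-19), and Sbno2 505 ± 33.6 CPM, against 102 ± 19.0 CPM (2.32 ± 0.10, adjusted p 9.5e-19). Tnfrsf1b, a TNF receptor, was lower, by -1.04 ± 0.09 (adjusted p 1.9e-11).

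The last list held 13 genes for proteins known to act on Il6 or Il10 transcription or message stability. LPS at 1 h raised 10 (10.7% of all tested genes) and lowered 0 (11.4%), and at 18 h raised 10 (31.7%) and lowered 2 (31.3%). LPS with IFNg at 1 h raised 11 (14.7%) and lowered 1 (14.6%), and at 18 h raised 10 (36%) and lowered 1 (36.1%). Nfkbiz, the nuclear IkappaB protein needed for Il6 transcription, had 1380 ± 24.2 CPM in LPS and 1650 ± 3.59 CPM in LPS with IFNg at 1 h, against 6.57 ± 1.25 CPM unstimulated. Nfkbiz at 18 h had 60.1 ± 8.31 CPM in LPS and 34.4 ± 2.25 CPM in LPS with IFNg, against 6.78 ± 0.716 CPM unstimulated.

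In LPS with IFNg against LPS at 1 h, 7 of these regulators were higher (6.52%) and 4 lower (5.26%). Arid5a, which stabilises the Il6 message, had 310.0 ± 9.99 CPM in LPS with IFNg, against 30.6 ± 4.81 CPM in LPS (3.33 ± 0.10, adjusted p 2.3e-23). Zfp36, the gene of tristetraprolin, was also higher, with means of 3600 CPM against 1340 CPM. Crem, a cyclic AMP responsive factor, had 76.5 ± 9.84 CPM, against 11.1 ± 0.552 CPM (2.79 ± 0.13, adjusted p 3.1e-18). Means were lower for Zc3h12a (220, against 290 CPM), Cebpb (163, against 288 CPM) and Dusp1 (901, against 1340 CPM). The part of these genes in the level of Il6 or Il10 was not tested. In IL-4 at 18 h Bhlhe40, a repressor of Il10 in T cells, was at 205 ± 8.66 CPM, against 33.7 ± 7.30 CPM unstimulated (2.60 ± 0.11, adjusted p 5.4e-19), and Maf, an activator of Il10, at 62.0 ± 9.34 CPM, against 172 ± 9.54 CPM unstimulated (-1.47 ± 0.10, adjusted p 5.1e-14). The levels of Bhlhe40 and Maf did not follow that of Il10 in the LPS groups of 1 h. Bhlhe40 at 1 h had 167 ± 3.51 CPM in LPS, where Il10 was highest, and 76.6 ± 3.81 CPM in LPS with IFNg, against 104 ± 6.18 CPM unstimulated, and was called higher in LPS (0.68 ± 0.10, adjusted p 2e-06) and lower in LPS with IFNg (-0.44 ± 0.10, adjusted p 0.0011). Maf at 1 h had 111 ± 5.13 CPM in LPS and 141 ± 6.72 CPM in LPS with IFNg, against 131 ± 11.5 CPM unstimulated, with neither passing the test (-0.25 and 0.10, adjusted p 0.069 and 0.48).

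The 3 genes most like each of the 8, by Pearson's r of log2 CPM over the 24 libraries among 9607 genes, were as follows, given as a description, since libraries of a group share their stimulus. Il6 was most like Acod1 (r = 0.988), Cd69 (0.971) and Gbp2b (0.969), and Lif most like Sele (0.986), Gabpb1 (0.979) and Tnfsf9 (0.976). For Osm these were Rab8b (0.972), Rela (0.969) and Socs3 (0.968), and for Il10 Ptpn12 (0.96), Rnf2 (0.931) and Cdc42ep4 (0.907). Il10ra was most like Pnrc1 (0.985), Irf1 (0.983) and Tagap (0.979), and Il10rb most like Shisa5 (0.946), Ifnar2 (0.937) and Dhrs1 (0.934). Il6st was most like P2ry1 (0.965), Dhrs9 (0.964) and Bcar3 (0.947), while the highest values for Il6ra were lower, with Kmt2e (0.855), Ip6k1 (0.847) and Usp22 (0.847). Among the 8 genes themselves, r was 0.91 between Il6 and Il10ra and between Osm and Il10ra, 0.89 between Il6 and Osm, 0.34 between Il6 and Il10, and -0.21 between Il6ra and Il6st.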

How the data were processed

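The deposited files hold raw read counts per Ensembl gene for each of 24 libraries, with no normalization by the authors. STAR, featureCounts, DESeq2, deepTools and the build GRCm38 are named in the submitters' processing notes. Versions, annotation release, strand setting and the treatment of overlapping genes are not given in the sources used here. A stranded mRNA kit was used, per the labels' protocols. GENCODE M21 held 42548 of the 43629 identifiers.

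The labels gave the groups. Counts were tested with edgeR 4.0.16 (R 4.3.3; TMM, factors 0.80 to 1.18; filterByExpr with a minimum count of 10, leaving 12765 genes; robust quasi-likelihood fit over all 8 groups; Benjamini-Hochberg adjustment; common biological coefficient of variation 0.0736), checked on simulated counts. A group with 0 reads was given a limit of 3 counts over the group, and 1 to 3 reads a ratio with a 95% counting interval. Alternatives were RLE and library-size scaling, no filter, DESeq2 1.42.0, limma-voom 3.58.1, compared groups alone, a replicate block, leaving out libraries and a threshold of 0.01. Replicate numbers are shared by all groups, and the labels do not say that they pair libraries. The deviations of same-numbered libraries from their group means had r above 0.1 in all 3 pairs for 1 of 12 directly compared pairs of groups, IL-4 and unstimulated cells at 1 h (0.133, 0.231 and 0.164), and over all groups in 34 of 84 pairs (range -0.091 to 0.427). The numbers were taken to pair the libraries in that comparison, and its blocked fit was added after the values were seen. The comparisons of 18 h with 1 h within a stimulus were added after the values were seen. Il6, Lif and the other genes, and all lists, were chosen with earlier results of these data known. All 8 genes were described in every comparison. From each list only some genes were named. These were mostly called genes with large fitted changes, but not always those with the largest, and other called genes are not given.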

Additional observations from a re-analysis of the deposited data

Results flagged for a closer look

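For 6 of the 8 genes at least 1 of 4 effects (LPS, LPS with IFNg, IL-4 and added IFNg) at 18 h differed from the same effect at 1 h by a test of the difference itself (edgeR quasi-likelihood, Benjamini-Hochberg over all genes). At least 1 of these 4 tests passed for 77.2% of all tested genes, which is near the share among the 8. The single tests passed for 54.2% (LPS), 63.9% (LPS with IFNg), 21.3% (IL-4) and 34.9% (added IFNg). All values are log2 differences, the response at 18 h minus that at 1 h.

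Il10 differed by -3.41 for LPS, by -2.00 for IL-4 and by 2.66 for added IFNg, and its highest level, in LPS, and its 10.3-fold lower level with IFNg were both at 1 h. Il10ra differed by -1.46 for LPS, -1.35 for LPS with IFNg and -0.78 for IL-4, and Il10rb by 0.34 for LPS and -0.24 for added IFNg. Library-size scaling took the LPS value of Il10rb to 0.11 (adjusted p 0.31), and its value for added IFNg lost its call without any 1 of 8 libraries (adjusted p 0.055 to 0.13).

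Il6ra differed by 0.56 for LPS, 1.54 for LPS with IFNg, -0.87 for IL-4 and 0.98 for added IFNg, where the LPS value lost its call without any 1 of 7 libraries (0.36 to 0.55, adjusted p 0.051 to 0.14), and Il6st by -0.65 for LPS and -0.86 for LPS with IFNg. Lif differed by -7.55 for LPS and -6.46 for LPS with IFNg. These fitted Lif values are no bounds, since each unstimulated group held 2 reads, and without unstimulated 18 h replicate 3 they were -4.95 (adjusted p 0.95) and -3.87 (adjusted p 0.91).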

How the results depend on the processing

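Of the values of the 8 genes under the alternatives, 1746 kept direction and call, 85 lost the call, 46 gained it and 20 turned direction. IL-4 at 1 h changed 1 gene at an adjusted p below 0.01 and 5 with the compared groups alone and a replicate block (chosen after seeing the data), against 3. Unstimulated cells at 18 h against 1 h changed 5 with the compared groups alone and 5 without LPS 18 h replicate 2 and IL-4 18 h replicate 2, against 3, and the IL-4 response differed between times for 5 with library-size scaling, against 3.

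With 1 library left out at a time, the genes changed at 1 h numbered 5 to 7 for LPS, 6 to 7 for LPS with IFNg, 1 to 3 for IL-4 (1 without unstimulated replicate 1 or 3 or IL-4 replicate 1 or 3) and 5 to 6 for LPS with IFNg against LPS. At 18 h they numbered 6 for LPS in every case, 6 to 7 for LPS with IFNg, 4 for IL-4 in every case and 5 to 7 for LPS with IFNg against LPS. For 18 h against 1 h they were 2 to 3 unstimulated, 6 to 8 in LPS, 6 to 7 in LPS with IFNg and 4 to 5 in IL-4. Tests of 18 h minus 1 h gave 5 to 6 for LPS, 3 to 5 for LPS with IFNg, 3 to 4 for IL-4 and 2 to 3 for added IFNg.

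Library-size scaling moved the median log2 fold change of all genes by -0.19 in LPS and -0.25 in LPS with IFNg at 1 h, and by -0.41 and -0.54 at 18 h. It called 897 genes higher and 3540 lower in LPS at 1 h (1366 and 1458 with TMM), 1087 and 5247 in LPS with IFNg at 1 h (1873 and 1867), 2076 and 6975 in LPS at 18 h (4043 and 3997), and 2461 and 7603 in LPS with IFNg at 18 h (4591 and 4606). It turned Il10rb to -0.002 in LPS at 1 h, -0.11 in LPS with IFNg at 1 h, -0.28 in LPS with IFNg at 18 h, 0.06 in unstimulated cells at 18 h against 1 h, -0.17 for the LPS with IFNg response at 18 h minus 1 h and -0.11 for LPS with IFNg at 18 h against 1 h. It turned Il6st in LPS with IFNg at 1 h to -0.1, Il6ra in LPS at 18 h to -0.36 and in LPS at 18 h against 1 h to -0.02, and Osm in the change of the IFNg effect to -0.01. Of these, the Il10rb value of -0.28 and the Il6ra value of -0.36 passed the test.

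Other turns were of values that passed no test: Il6ra without LPS 18 h replicate 3 (-0.14 in LPS at 18 h, range with any library left out -0.14 to 0.25; -0.07 against LPS at 1 h, range -0.07 to 0.33), Il10rb in unstimulated cells (0.02 without 1 h replicate 3 and 0.0004 without 18 h replicate 1, range -0.05 to 0.02), and the change of the IFNg effect of Il6 (0.05 without LPS 18 h replicate 2, alone or with IL-4 18 h replicate 2, range -0.42 to 0.05) and of Osm (-0.07 without LPS 1 h or 18 h replicate 3, -0.04 and -0.03 without LPS with IFNg 1 h replicate 1 or 2, range -0.07 to 0.15). The cause was not tested.

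All genes called in unstimulated cells at 18 h against 1 h numbered 1519, against 861 to 988 without 1 of 4 libraries and 809 at an adjusted p below 0.01. For the IL-4 response between times they numbered 2720, against 1659 at that threshold. Over all groups, a replicate block lost no call of the 8 genes and gained 7, such as Il6st in LPS at 1 h (-0.31, adjusted p 0.041) and Il10 in LPS with IFNg at 18 h (0.61, adjusted p 0.03). Depth limits Il6 and Lif without LPS, where 3 counts over a group come to 0.142 to 0.217 CPM.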

Other observations

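Unstimulated cells were not at one level through the experiment. At 18 h against 1 h, 10 of the 15 tested IL-10 and STAT3 response genes were lower and 0 higher, and 8 of the 13 regulators of Il6 and Il10 transcripts were lower and 1 higher, where 7.93% of all tested genes were called lower and 3.97% higher. Junb, an AP-1 subunit, had 114 ± 9.77 CPM at 18 h, against 280.0 ± 17.1 CPM at 1 h (log2 fold change -1.30 ± 0.08, adjusted p 4.9e-13), and Bhlhe40 33.7 ± 7.30 CPM at 18 h, against 104 ± 6.18 CPM at 1 h (-1.62 ± 0.11, adjusted p 4.2e-12). The brakes Socs1 (-2.38 ± 0.37, adjusted p 1.9e-05) and Socs3 (-2.30 ± 0.40, adjusted p 0.00036) fell as well. Over the same times unstimulated Il10 and Osm were lower and Il10ra higher at 18 h, so a response at 18 h is set against another baseline than a response at 1 h.

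IL-4 against unstimulated cells raised 4 (3.22% of all tested genes) and lowered 2 (3.21%) of the 15 response genes at 1 h, and at 18 h it raised 10 (19.1%) and lowered 2 (20.1%). With the compared groups alone and a replicate block, the counts at 1 h were 5 and 5. Nfil3, a repressor of IL-12 p40 transcription, had 132 ± 10.5 CPM in IL-4 at 1 h, against 7.79 ± 2.54 CPM unstimulated (4.12 ± 0.14, adjusted p 1.3e-21), while Bcl3 had 5.57 ± 1.12 CPM, against 15.3 ± 2.14 CPM (-1.45 ± 0.19, adjusted p 1.3e-06). Of the 13 regulators, IL-4 raised 4 and lowered 3 at 1 h and raised 7 and lowered 3 at 18 h, beside the same shares of all genes. Nfkbiz was lower at both times, at 1.94 ± 0.48 CPM in IL-4, against 6.57 ± 1.25 CPM unstimulated, at 1 h (-1.79 ± 0.24, adjusted p 1.2e-06) and 1.16 ± 0.638 CPM, against 6.78 ± 0.716 CPM, at 18 h (-2.60 ± 0.26, adjusted p 8.3e-10).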
